A study of Mus musculus with 30 samples.

Results

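The endocannabinoid system of the nucleus accumbens was followed through 8 genes: Cnr1, Dagla, Daglb, Mgll, Abhd6, Abhd12, Napepld and Faah. They were chosen by symbol for their place in the making, breakdown and sensing of endocannabinoids. Their rows in the count table were found through the Ensembl identifiers of GENCODE M21, 8 of 55335 genes. All 8 passed the filter on low counts, as did 19368 genes in all.

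Ribosome-bound RNA was sequenced from accumbens tissue of female mice in which a Cre driver switches on an HA-tagged ribosomal protein (RiboTag, RT), so that an anti-HA antibody pulls down polyribosomes of the tagged cells. D1-Cre-RT mice tag the medium spiny neurons that express the D1 dopamine receptor, and A2A-Cre-RT mice tag those that express the adenosine A2A receptor, which are also the D2 dopamine receptor class. Stressed females went through chronic witness defeat stress (CWDS), a paradigm in which a mouse sees another being attacked, and were then graded by social interaction into Resilient and Susceptible. Tissue was collected 24 h after that test, and each library pooled 4 mice with similar scores.

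There were 6 groups of 5 libraries, 30 in all. D1 Control, D1 Resilient and D1 Susceptible came from D1-Cre-RT mice without CWDS, with CWDS and a Resilient score, and with CWDS and a Susceptible score. D2 Control, D2 Resilient and D2 Susceptible were the same 3 conditions in A2A-Cre-RT mice. All 6 groups shared female sex, the RiboTag allele and a Cre driver. No age is stated in the sources used here. A library reports on any cell in the punch in which the driver was active. RNA of other cells carried through the pulldown cannot be told apart from it, since no library without the tag was among the 30. The spread between single mice inside a pool cannot be seen.

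Gene counts per library ran from 28996168 to 65882152. Values are given as CPM, counts of a gene per 1000000 counts of a library size scaled by TMM (trimmed mean of M values). Of the class genes, Adora2a separated the classes, at 105 to 314 CPM in D1 libraries and at 491 to 1457 CPM in D2 libraries. The D2 receptor gene Drd2 did so as well, at 49.8 to 143 CPM in D1 and 205 to 572 CPM in D2 libraries. The D1 receptor gene Drd1 overlapped, at 377 to 616 CPM in D1 and 50.3 to 414 CPM in D2 libraries. The summed D1 markers overlapped too, at 1694 to 2548 CPM in D1 and 268 to 1797 CPM in D2. Several libraries stood apart. D2 Susceptible replicates 1 and 2 had counts in 15822 and 16525 genes, against 19440 to 22375 in the other 28. D1 Susceptible replicate 1 had the fewest counts, and the single gene Gm42418 took 54.9% of them. D2 Control replicate 5 and D2 Resilient replicate 5 had 247 and 414 CPM of Drd1, against 50.3 to 147 CPM in the other 13 D2 libraries. The 414 CPM lay inside the D1 range of Drd1. Values without these libraries are given beside the results they move most.

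Endocannabinoids are lipid messengers that spiny neurons release backward onto the axon terminals that contact them. The most abundant, 2-arachidonoylglycerol (2-AG), is cut from diacylglycerol by the lipases Dagla and Daglb and is broken down by Mgll, Abhd6 and Abhd12. Anandamide is released by the phospholipase Napepld and degraded by the hydrolase Faah. Both lipids act on the CB1 receptor, encoded by Cnr1, which lowers transmitter release at accumbens terminals and is also made by spiny neurons themselves.

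Cnr1, Faah and Mgll are the members whose libraries did not overlap between the classes in Control or Susceptible mice, so the DNA just upstream of their start sites is shown. Each stretch holds 240 bases that end 10 bases before the most upstream start site found in RefSeq (GRCm38.p6). It is read 5′ to 3′ on the strand of the gene. For Cnr1 that site, 33924264, lies upstream of the gene start in GENCODE M21, 33924593. Capitals mark GC boxes, which are GGGCGG on the strand shown or, where the box lies on the opposite strand, CCGCCC. The windows are chr4:33924014-33924253 on the plus strand for Cnr1, chr4:116017935-116018174 on the minus strand for Faah and chr6:88724162-88724401 on the plus strand for Mgll.
Cnr1: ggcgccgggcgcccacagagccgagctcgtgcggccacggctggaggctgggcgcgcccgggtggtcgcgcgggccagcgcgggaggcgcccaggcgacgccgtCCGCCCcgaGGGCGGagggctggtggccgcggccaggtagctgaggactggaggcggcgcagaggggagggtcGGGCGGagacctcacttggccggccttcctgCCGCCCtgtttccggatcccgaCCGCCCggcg
Faah: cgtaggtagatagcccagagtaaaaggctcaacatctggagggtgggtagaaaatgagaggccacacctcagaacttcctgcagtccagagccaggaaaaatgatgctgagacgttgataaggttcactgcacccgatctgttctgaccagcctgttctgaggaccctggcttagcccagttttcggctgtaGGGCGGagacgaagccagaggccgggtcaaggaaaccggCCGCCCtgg
Mgll: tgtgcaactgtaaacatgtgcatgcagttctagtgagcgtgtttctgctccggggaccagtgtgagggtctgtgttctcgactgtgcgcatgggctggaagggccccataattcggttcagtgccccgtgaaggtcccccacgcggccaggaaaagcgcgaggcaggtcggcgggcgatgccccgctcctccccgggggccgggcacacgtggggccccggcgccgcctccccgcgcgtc
The Cnr1 window had 5 GC boxes, a G+C content of 79.6% and 35 CpG dinucleotides. The Faah window had 2 GC boxes, a G+C content of 55.8% and 9 CpG. The Mgll window had no GC box, a G+C content of 67.5% and 23 CpG. Among 32817 promoter windows of the same length, 31.3% held at least 1 GC box, the median G+C content was 52.1% and the median CpG count was 5. The CCAAT letters were on neither strand of these 3 windows and in 33.0% of all windows. The TATAAA letters were on neither strand of the 3 either, against 12.1% of all windows. Likewise TGACG, the core of the cAMP response element, was absent from the 3 windows and present in 16.9% of all. Such matches are letters in a window and are no record of binding. RefSeq windows were found for 6 of the 8 members. In GRCm38 the 3 genes run over chr4:33924593-33948831 (Cnr1), chr4:115967145-116017926 (Faah) and chr6:88724412-88828360 (Mgll).

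Across the members, levels per kilobase of exon differed widely, and the breakdown side of the 2-AG route stood above its synthesis side in every group. In D1 Control the order was Abhd12 at 57.9 CPM per kb ± 2.52 (SD, n = 5), Mgll at 44.4 ± 1.60, Cnr1 at 20.6 ± 3.79 and Abhd6 at 15.7 ± 1.34. Dagla followed at 7.89 CPM per kb ± 0.717, Faah at 4.09 ± 0.403, Daglb at 3.28 ± 0.303 and Napepld at 0.953 ± 0.0947. Of the neighbours in this D1 Control order, Cnr1 and Abhd6 overlapped in range (17.6 to 27.1 against 14.8 to 17.9 CPM per kb), as did Faah and Daglb (3.74 to 4.73 against 3.01 to 3.79), and the other neighbours did not. In D2 Control, Mgll came first at 60.2 CPM per kb ± 11.9, with a range that overlapped that of Abhd12 (53.6 ± 4.56). Cnr1 stood below Abhd6 in D2 Control, at 8.54 CPM per kb ± 2.87 against 14.8 ± 1.13, and Faah stood below Daglb, at 2.67 ± 0.484 against 3.10 ± 0.357. The Cnr1 level was thus the third of 8 in all 3 D1 groups and the fourth of 8 in all 3 D2 groups. Daglb shares exon bases with Rac1 and Mgll with Gm26588, both on the opposite strand. Whether counting used strand is not stated, and without it Daglb and Rac1 reads in the shared bases cannot be told apart. In pulldown RNA of pooled tissue, a larger share of cells with a transcript and more ribosome-bound RNA per cell cannot be told apart. Class and Cre line cannot be told apart either, since each class came from its own line.

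**Figure D1:**
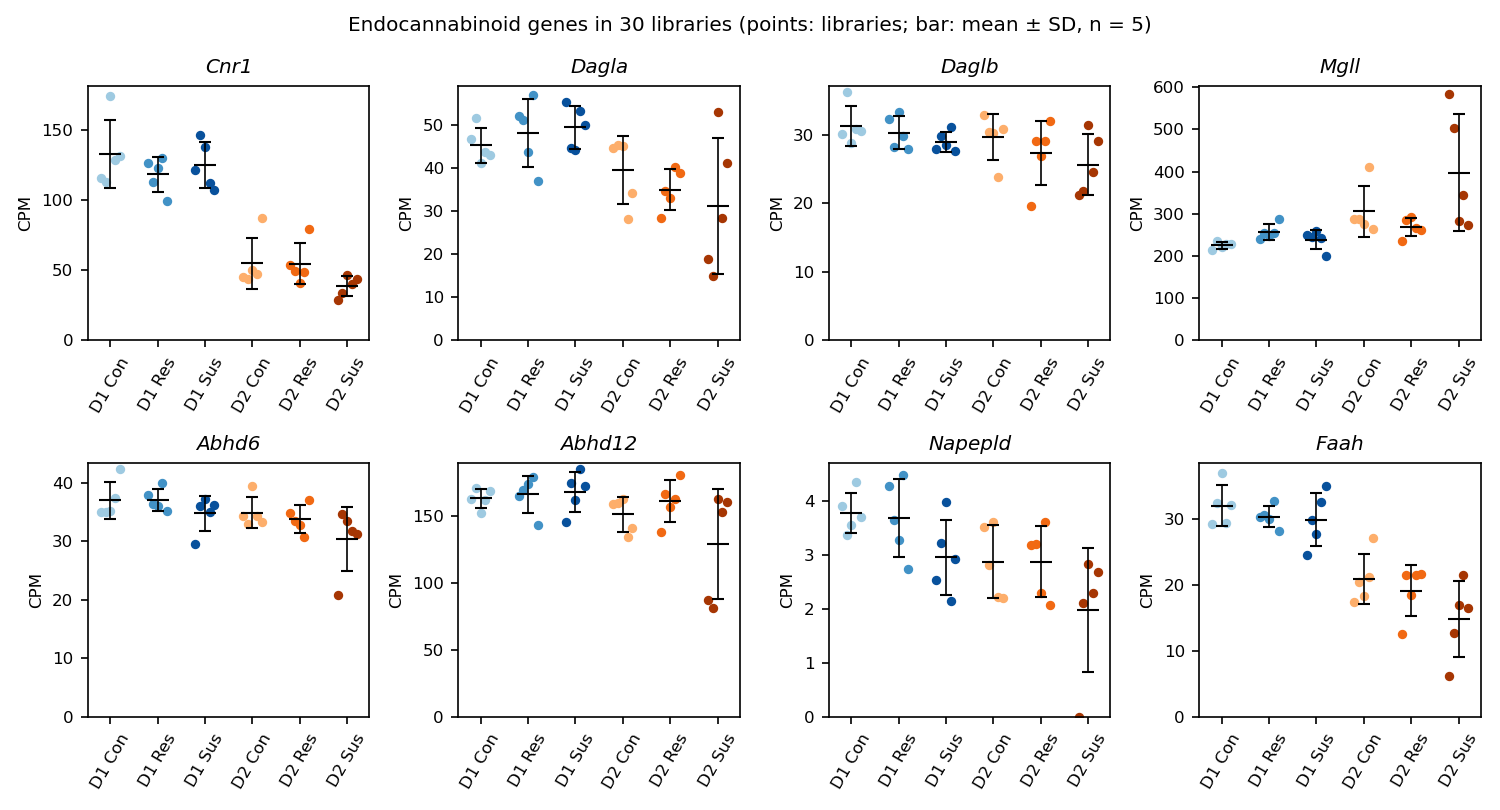
Level of each of the 8 genes (CPM, y axis from 0) in 30 libraries of 6 groups (x axis; Con, Control; Res, Resilient; Sus, Susceptible); points are libraries, and bars are the mean ± SD of 5. All 15 D1 libraries lie above all 15 D2 libraries for Cnr1, and D2 Susceptible replicates 1 and 2, the first points of that group, lie apart for Mgll, Dagla and Abhd12.

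The receptor, a lipase and both main hydrolases differed between D1 and D2 libraries, in unlike directions. Cnr1 and Faah were higher in D1 in Control, Resilient and Susceptible mice, and Mgll was lower in D1 over the 3 stress groups together. In Control mice 2 of the 8 genes were called, both higher in D1 (edgeR quasi-likelihood test, Benjamini-Hochberg adjusted p under 0.05), where 8.3% of all genes tested were called, 3.51% higher and 4.8% lower. In Resilient mice 2 of 8 were called, both higher, against 6.65% of all genes, 2.75% higher and 3.9% lower. In Susceptible mice 4 were higher and 1 lower, against 23.9% of all genes, 10.5% higher and 13.4% lower. For the mean of the class difference over the 3 stress groups, 3 were higher and 1 lower, against 29.3% of all genes, 13.8% higher and 15.5% lower. The median log2 difference of the 8 was 0.31 in that mean comparison, and it was 0.00 over all genes. The libraries of the classes did not overlap for Cnr1, Faah and Mgll in Control and in Susceptible mice, as for 11.7% and 8.92% of all genes, and for Cnr1 and Faah in Resilient mice, as for 9.7%. The 3 comparisons by stress group are part of the mean comparison and are not independent of it.

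Cnr1 showed the widest gap. In D1 Control libraries it lay at 116, 114, 174, 129 and 132 CPM, and in D2 Control libraries at 45.3, 44.0, 50.3, 47.5 and 87.8 CPM. Every D1 Control library was above every D2 Control library, although D2 Control replicate 5 sat well above the other 4 of its group. The difference in level was 1.27 on the log2 scale (SE 0.176, edgeR adjusted p = 1.15e-05). In Resilient mice D1 libraries held 127, 113, 123, 131 and 99.7 CPM of Cnr1, and D2 libraries held 53.9, 49.6, 41.4, 49.1 and 79.7 CPM. The groups again did not overlap, with D2 Resilient replicate 5 the highest of the D2 group. That log2 difference was 1.12 (SE 0.176, edgeR adjusted p = 6.06e-05). In Susceptible mice the D1 values were 122, 146, 138, 112 and 107 CPM and the D2 values 29.01, 33.7, 46.6, 40.2 and 44.2 CPM. No D2 Susceptible library reached 50 CPM, and none of the 5 D1 libraries was under 100 CPM. That log2 difference was 1.69 (SE 0.179, edgeR adjusted p = 1.56e-07).

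Over all 30 libraries Cnr1 ran from 99.7 to 174 CPM in D1 and from 29.01 to 87.8 CPM in D2, with no overlap, which was true of 1.18% of all genes tested. The mean log2 difference was 1.36 (SE 0.102, edgeR adjusted p = 1.40e-11), a level 2.57 times as high in D1. Cnr1 was called in each of the 4 comparisons between the classes under all alternatives run, and its mean log2 difference stayed between 1.322 and 1.498.

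Of the D2 libraries, the 2 with the most Drd1 were also the 2 with the most Cnr1. D2 Control replicate 5 had 87.8 CPM of Cnr1 with 247 CPM of Drd1, and D2 Resilient replicate 5 had 79.7 CPM with 414 CPM of Drd1. The other 13 D2 libraries held 29.01 to 53.9 CPM of Cnr1. These 2 libraries also had the lowest Adora2a of the class, 751 and 491 CPM, against 1030 to 1457 CPM. Without both, the mean class difference of Cnr1 was 1.498 on the log2 scale, larger than with them. Across the 15 D2 libraries, Pearson's r between Cnr1 and an index of D2 over D1 marker genes (log2 scale) was -0.85, and -0.51 across the 13 without those 2. Across the 15 D1 libraries it was -0.66; these values describe libraries that share tissue, processing and scaling, and carry no test.

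**Figure D2:**
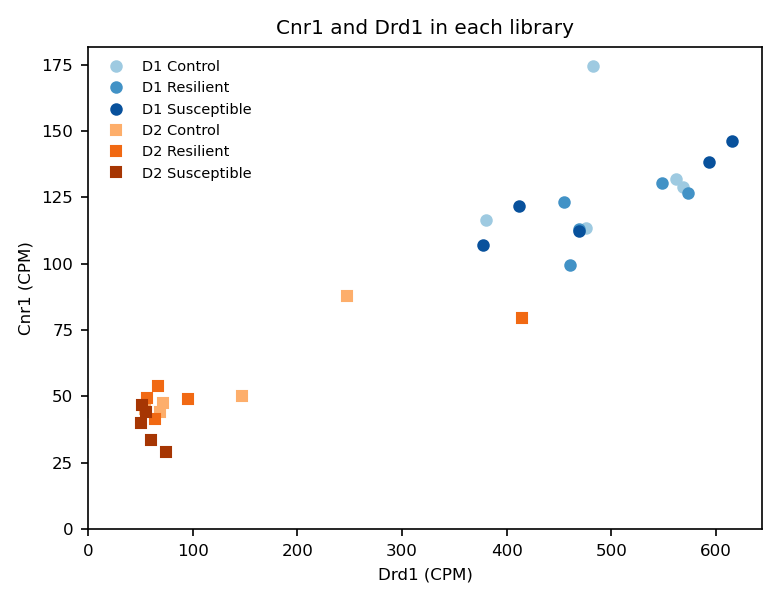
Cnr1 (CPM, y axis) against Drd1 (CPM, x axis) in each of the 30 libraries, circles for D1 and squares for D2, shaded by stress group. D2 Control replicate 5 (247 CPM of Drd1) and D2 Resilient replicate 5 (414 CPM) lie to the right of the other D2 squares and above them in Cnr1.

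Markers of other neurons differed between the classes too. The summed level of 8 interneuron markers was 452 to 637 CPM in D1 libraries and 143 to 450 CPM in D2 libraries, and 7 of the 8 were called higher in D1 in the mean comparison. The sum of 5 markers of glutamatergic neurons was 483 to 925 CPM in D1 and 142 to 526 CPM in D2, with 5 of 5 called higher in D1. No marker of either list was at 0 in all libraries of a group. Interneurons and cortical neurons express Cnr1 in the brain; the part of these cells in the Cnr1 difference was not tested.

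Faah, the anandamide hydrolase, was the other gene higher in D1 throughout. D1 Control libraries held 29.3, 32.5, 37.0, 29.3 and 32.1 CPM, and D2 Control libraries 17.4, 20.5, 18.3, 21.3 and 27.1 CPM. The groups did not overlap, and D2 Control replicate 5, high in Cnr1, was the highest D2 library here as well. The log2 difference in Control mice was 0.62 (SE 0.191, edgeR adjusted p = 0.0399). This call was lost when any 1 of D1 Control replicates 2 to 5 or D2 Control replicates 1 to 4 was left out, with log2 differences of 0.57 to 0.66 and adjusted p of 0.0533 to 0.109. In Resilient mice the D1 libraries held 30.4, 30.6, 29.98, 32.7 and 28.2 CPM, and the D2 libraries 12.6, 21.5, 18.5, 21.6 and 21.6 CPM. There too every D1 library was above every D2 library, and D2 Resilient replicate 1 was the lowest. The log2 difference was 0.66 (SE 0.191, edgeR adjusted p = 0.0281), with the call lost without D1 Resilient replicate 4 (adjusted p = 0.0607), D2 Resilient replicate 1 (0.121) or D2 Resilient replicate 3 (0.0565).

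In Susceptible mice Faah lay at 24.6, 29.8, 27.7, 32.5 and 35.0 CPM in D1 and at 6.25, 12.8, 17.0, 21.5 and 16.6 CPM in D2. The D2 group was the most spread of the 6, its lowest values in replicates 1 and 2. The log2 difference was 1.01 (SE 0.193, edgeR adjusted p = 0.00039), and without those 2 libraries it was 0.73 (adjusted p = 0.000948). Averaged over the stress groups it was 0.76 (SE 0.111, edgeR adjusted p = 2.59e-06). Unlike for Cnr1, the 2 classes met at their edges, 24.6 CPM being the lowest D1 value and 27.1 CPM the highest D2 value.

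Mgll, which clears most 2-AG in brain, went the other way. D1 Control libraries held 214, 236, 222, 228 and 228 CPM, and D2 Control libraries 287, 289, 275, 412 and 265 CPM. The groups did not overlap, and D2 Control replicate 4 was far above the other 4 of its group. The log2 difference of Mgll, D1 minus D2, was -0.44 (SE 0.146) and missed the threshold (edgeR adjusted p = 0.0604). It was past the threshold under 5 of 19 alternatives, with adjusted p of 0.0389 in DESeq2, 0.00021 in voom, 0.012 with only the groups compared and 0.00175 without D2 Susceptible replicates 1 and 2. Of all genes the main fit called 1608, voom 5511, the groups compared alone 2696 and the fit without those replicates 3134. In Resilient mice the classes overlapped, at 240, 255, 247, 255 and 288 CPM in D1 and 237, 286, 293, 265 and 262 CPM in D2. That log2 difference was -0.07 (SE 0.146, edgeR adjusted p = 0.96).

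In Susceptible mice Mgll lay at 249, 244, 258, 242 and 199 CPM in D1 and at 583, 503, 283, 344 and 272 CPM in D2. All 5 D2 libraries were above all 5 D1 libraries, and D2 replicates 1 and 2 were far above the other 3. The log2 difference was -0.74 (SE 0.147, edgeR adjusted p = 0.000648). Without D2 Susceptible replicates 1 and 2 it was -0.31 and no longer called (adjusted p = 0.0628), nor was it with only the groups compared in the fit (0.0579). Averaged over the stress groups, D1 minus D2 for Mgll was -0.41 on the log2 scale (SE 0.0845, edgeR adjusted p = 0.000354), and without those 2 libraries it was -0.26 (adjusted p = 0.00059).

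Cells other than spiny neurons left different traces in the classes. Endothelial markers summed to 12.2 to 35.4 CPM in D1 and to 57.2 to 304 CPM in D2, with 6 of 6 called lower in D1 in the mean comparison. Oligodendrocyte markers summed to 357 to 943 CPM in D1 and to 409 to 1867 CPM in D2, also with 6 of 6 called lower in D1. By stress group, 0 of these 6 were called in Control mice, 2 in Resilient mice and 4 in Susceptible mice, each lower in D1. Astrocyte markers were called lower in D1 in 6 of 6 and mural cell markers in 5 of 5. No marker of these lists was at 0 in all libraries of a group. The part of these cells in the Mgll difference was not tested.

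Dagla, the main 2-AG synthase of adult neurons, was called higher in D1 in Susceptible mice and in the mean comparison. Its Control libraries held 46.8, 51.8, 41.2, 43.8 and 43.2 CPM in D1 and 44.8, 45.4, 45.2, 28.1 and 34.3 CPM in D2. These values overlapped (log2 difference 0.20, SE 0.212, edgeR adjusted p = 0.712). In Resilient mice they were 52.2, 51.3, 43.7, 57.1 and 37.1 CPM in D1 and 28.5, 34.7, 33.1, 40.3 and 39.0 CPM in D2. Only D1 Resilient replicate 5 fell within the D2 range, and the log2 difference was 0.46 (SE 0.212, edgeR adjusted p = 0.281). It was past the threshold in voom (0.00248), with only the groups compared (0.0163) and without D2 Susceptible replicates 1 and 2 (0.0273). Over all genes these settings called 3412, 2184 and 2305, against 1288 in the main fit. In Susceptible mice the values were 55.4, 44.9, 44.3, 53.4 and 50.1 CPM in D1 and 19.0, 15.1, 53.2, 28.4 and 41.2 CPM in D2. The D2 libraries spanned from the lowest to nearly the highest Dagla value of the study.

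For Susceptible mice the Dagla log2 difference was 0.66 (SE 0.213, edgeR adjusted p = 0.025). The call was lost without D2 Susceptible replicate 1 (adjusted p = 0.0763), D2 Susceptible replicate 2 (0.0652) or D1 Susceptible replicate 1 (0.0522), and without both D2 libraries the difference was 0.30 (0.294). The mean log2 difference of Dagla over the stress groups was 0.44 (SE 0.123, edgeR adjusted p = 0.00725), and 0.33 (0.00483) without those 2 D2 libraries.

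Abhd12, a serine hydrolase that takes a small share of 2-AG breakdown, was called in Susceptible mice. It lay at 146, 175, 162, 185 and 173 CPM in D1 Susceptible and at 87.3, 81.4, 163, 153 and 161 CPM in D2 Susceptible. The other 3 D2 libraries lay inside the D1 range, and replicates 1 and 2 were far below it. The log2 difference was 0.38 (SE 0.135, edgeR adjusted p = 0.0391), and 0.11 (adjusted p = 0.53) without replicates 1 and 2. The call was also lost without D2 Susceptible replicate 1 alone (0.106), D2 replicate 2 alone (0.109), or D1 Susceptible replicate 2 (0.0565), 4 (0.071) or 5 (0.0563). In Control and Resilient mice the log2 differences were 0.11 and 0.04, not called. The mean log2 difference was 0.18 (SE 0.0781, adjusted p = 0.0838), past the threshold when D1 Resilient replicate 5, D2 Resilient replicate 5 or D2 Susceptible replicate 3, 4 or 5 was left out (0.0195 to 0.0455).

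Daglb, Abhd6 and Napepld were not called between the classes in any stress group. Daglb, the second diacylglycerol lipase, ran from 27.7 to 36.3 CPM in D1 and from 19.7 to 32.9 CPM in D2 (mean log2 difference 0.13, SE 0.0674, edgeR adjusted p = 0.139), and without D2 Susceptible replicate 3 that difference was called (0.0358). Abhd6, which cuts 2-AG on the postsynaptic side, ran from 29.6 to 42.4 CPM in D1 and from 20.8 to 39.5 CPM in D2 (0.14, SE 0.0585, adjusted p = 0.0723). The Abhd6 difference was past the threshold under 15 of 38 alternatives, voom (0.0043) and the fit without D2 Susceptible replicates 1 and 2 (0.0316) among them, and 12 of the 15 each left out a single library. Napepld was the scarcest member, at 2.14 to 4.48 CPM in D1 and 0 to 3.60 CPM in D2 (0.44, SE 0.269, adjusted p = 0.229), and was called without D2 Susceptible replicate 1 (0.36, adjusted p = 0.0295) and in voom (0.0267). Its 0 was in D2 Susceptible replicate 1, where no read in 48699934 gene counts allows a level of up to 0.0616 CPM of the unscaled library size.

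**Figure D3:**
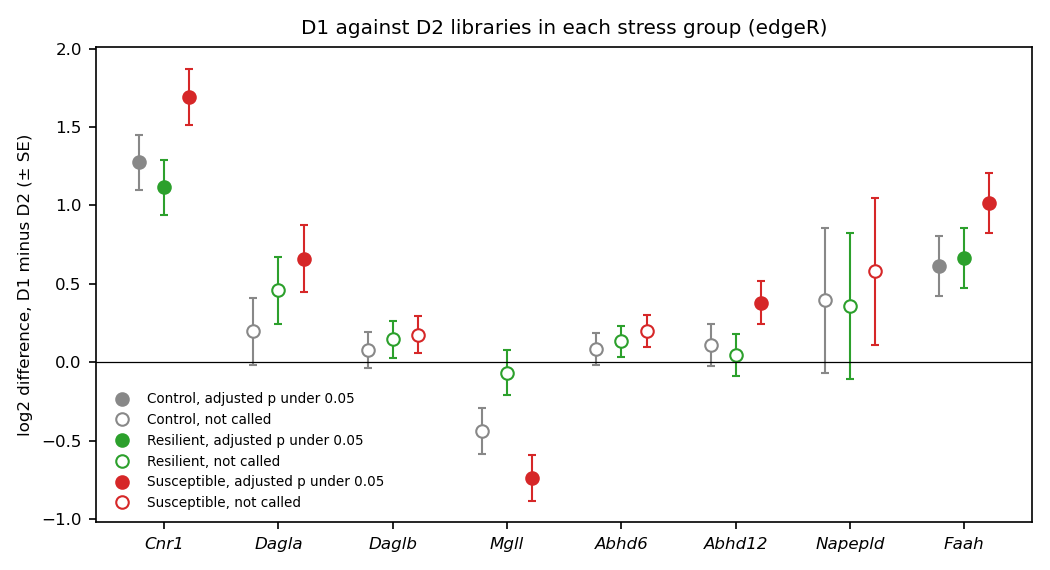
Log2 difference in level, D1 minus D2 (y axis, ± SE from edgeR), for each of the 8 genes (x axis) in Control, Resilient and Susceptible mice, with 5 libraries per group; filled points have an adjusted p under 0.05. Cnr1 (1.12 to 1.69) and Faah (0.62 to 1.01) are filled in all 3 stress groups, and Mgll is filled in Susceptible mice only (-0.74).

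Stress left none of the 8 genes past the threshold in D1 libraries. For Resilient against Control, Susceptible against Control and Susceptible against Resilient, edgeR called 0 of 8 members and 0% of all genes. None of the 8 had an unadjusted p under 0.05 in these 3 comparisons, where 2.6%, 2.4% and 3.49% of all genes did, and DESeq2 and voom called 0 of 8 as well. The median absolute log2 difference of the members was 0.06, 0.09 and 0.07, and that of all genes was 0.12, 0.14 and 0.13. Cnr1 differed by -0.16 on the log2 scale in D1 Resilient (SE 0.173) and by -0.09 in D1 Susceptible (SE 0.173) against D1 Control. Mgll was the 1 member whose D1 libraries did not overlap between stress groups, at 214 to 236 CPM in D1 Control and 240 to 288 CPM in D1 Resilient, as was true of 1.54% of all genes; no member's libraries were apart in the other 2 comparisons, against 0.888% of all genes for Susceptible against Control and 1.12% for Susceptible against Resilient. That log2 difference of Mgll was 0.19 (SE 0.146, edgeR adjusted p = 1).

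In D2 libraries Resilient against Control also gave 0 of 8 calls, where 0% of all genes were called, with 0 of 8 at an unadjusted p under 0.05 (4.2% of all genes) and 0 by DESeq2 or voom. Its log2 differences ran from -0.18 for Mgll to 0.09 for Abhd12. Susceptible libraries gave larger values, with 0 of 8 members called against Control, where 0.00516% of all genes were called, and 0 of 8 called against Resilient, where 0.0516% were. DESeq2 called 0 and 1 members in these comparisons, where it called 255 and 976 genes in all, and voom called 0 members in both. Unadjusted p values under 0.05 were reached by 3 of 8 members in each, and by 15.7% and 19.1% of all genes. In both comparisons 7 of 8 members were below 0, and the 2 share the same D2 Susceptible libraries. The median log2 difference of the 8 was -0.28 against Control and -0.24 against Resilient, and that of all genes was -0.03 in both.

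For Mgll, the member above 0, the log2 difference of D2 Susceptible was 0.38 against Control (SE 0.146, edgeR adjusted p = 0.216) and 0.56 against Resilient (SE 0.147, adjusted p = 0.0659). The second was past the threshold in DESeq2 (0.0144) and without D2 Susceptible replicate 3 (0.00975), 4 (0.039) or 5 (0.0123). Without replicates 1 and 2 the same 2 differences were -0.03 and 0.15. So the D2 Susceptible values of Mgll rest on 583 and 503 CPM in those libraries, beside 272 to 344 CPM in the other 3 and 237 to 293 CPM in D2 Resilient.

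Cnr1 was at a mean of 38.7 CPM ± 7.31 in D2 Susceptible (SD, n = 5), beside 55.0 ± 18.5 in D2 Control and 54.7 ± 14.7 in D2 Resilient. The log2 difference was -0.51 against Control (SE 0.174, edgeR adjusted p = 0.189) and -0.50 against Resilient (SE 0.175, adjusted p = 0.12). The second was past the threshold without D2 Susceptible replicate 3 (0.0454). The D2 Susceptible range, 29.01 to 46.6 CPM, overlapped those of D2 Control (44.0 to 87.8) and D2 Resilient (41.4 to 79.7). Without D2 Control replicate 5 and D2 Resilient replicate 5, the 2 libraries with high Drd1, the differences were -0.27 and -0.33. Without D2 Susceptible replicates 1 and 2 they were -0.34 and -0.33. In the index of D2 over D1 marker genes the D2 Susceptible libraries lay at 4.93 to 5.76, the D2 Control libraries at 2.43 to 4.99 and the D2 Resilient libraries at 1.47 to 4.86; its part in the Cnr1 values was not tested.

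Faah had a log2 difference of -0.49 in D2 Susceptible against Control (SE 0.191, edgeR adjusted p = 0.216) and of -0.37 against Resilient (SE 0.191, adjusted p = 0.295). Without D2 Susceptible replicates 1 and 2, the lowest in Faah, these were -0.19 and -0.06. Abhd12 had -0.23 against Control (SE 0.135, adjusted p = 0.41) and -0.32 against Resilient (SE 0.135, adjusted p = 0.192). The Abhd12 value against Resilient was past the threshold without D2 Susceptible replicate 3 (0.0483), and without replicates 1 and 2 the Abhd12 values were 0.06 against Control and -0.02 against Resilient. Dagla had -0.33 and -0.16, which became 0.04 and 0.22 without those 2 libraries. Daglb, Abhd6 and Napepld had -0.21, -0.20 and -0.53 against Control, with edgeR adjusted p of 0.378, 0.34 and 0.595. Without replicates 1 and 2 they had -0.07, -0.12 and -0.15.

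**Figure D4:**
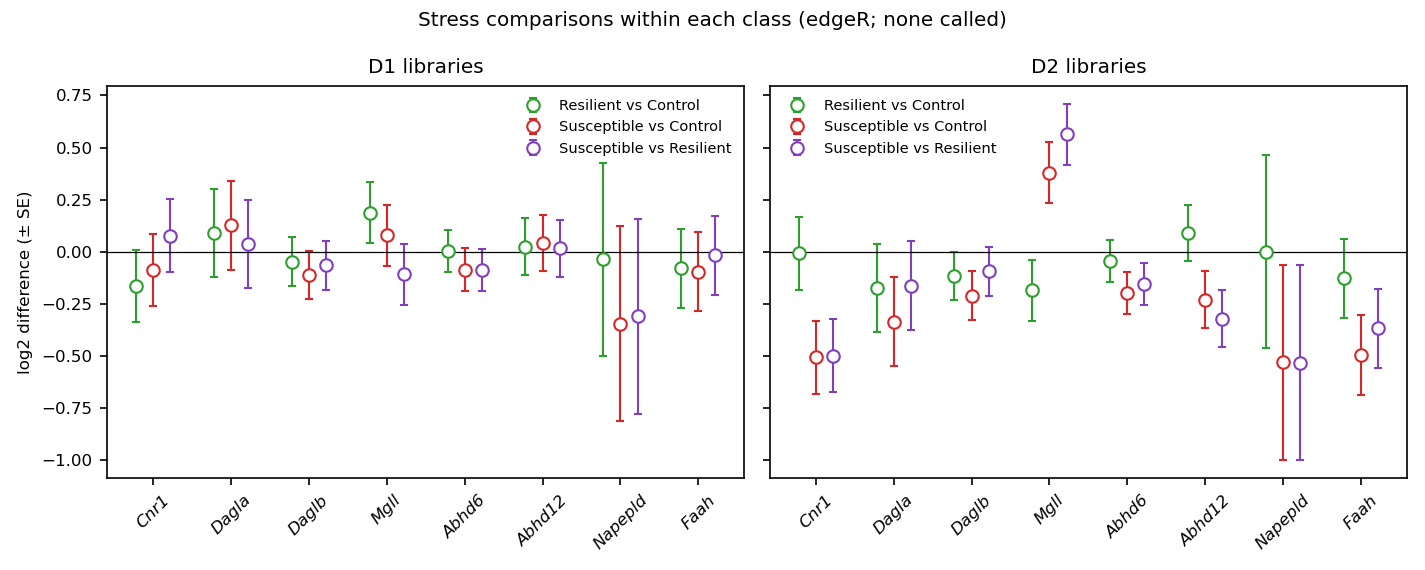
Log2 difference in level (y axis, ± SE from edgeR) of each gene (x axis) for the 3 stress comparisons, in D1 libraries (left) and D2 libraries (right), 5 libraries per group. No point has an adjusted p under 0.05; on the right, D2 Susceptible against Control and against Resilient lie at -0.51 and -0.50 for Cnr1, -0.49 and -0.37 for Faah and 0.38 and 0.56 for Mgll, and Napepld (-0.53 in both) has an SE of 0.467.

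D2 Susceptible replicates 1 and 2 differed from the other D2 libraries in several members at once. Their Mgll level was 6.68 and 6.18 times their Abhd12 level in CPM, and the ratio was 1.45 to 3.07 in the other D2 libraries. Reads that the counting assigned to no gene feature made up 11.1% and 10.4% of their reads. Whether introns counted as features is not stated, so such reads may lie inside genes. The 2 next libraries of the class in that share, D2 Susceptible replicate 4 (7.87%) and D2 Control replicate 4 (7.79%), had the next highest Mgll, 344 and 412 CPM. The other 11 D2 libraries had 5.202% to 6.31% of reads with no gene feature and 237 to 293 CPM of Mgll. Oligodendrocyte markers summed to 1867, 1426, 1019 and 1335 CPM in these 4 libraries in the order D2 Susceptible 1, 2 and 4 and D2 Control 4, and to 409 to 1072 CPM in the other 11. The highest of these 11, D2 Resilient replicate 1, had the lowest Mgll of the class (237 CPM). In D1 the highest shares were 41.2% (D1 Susceptible replicate 1) and 9.03% (D1 Susceptible replicate 5). Mgll there was 249 and 199 CPM, within 199 to 288 CPM over all D1 libraries. Dagla was 55.4 and 50.1 CPM (37.1 to 57.1), and Abhd12 was 146 and 173 CPM (144 to 185). Pearson's r of Mgll with the oligodendrocyte sum (log2 scale) was 0.76 over the 15 D2 libraries and -0.51 over the 15 D1 libraries. The part of these measures in the Mgll, Dagla and Abhd12 values was not tested.

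**Figure D5:**
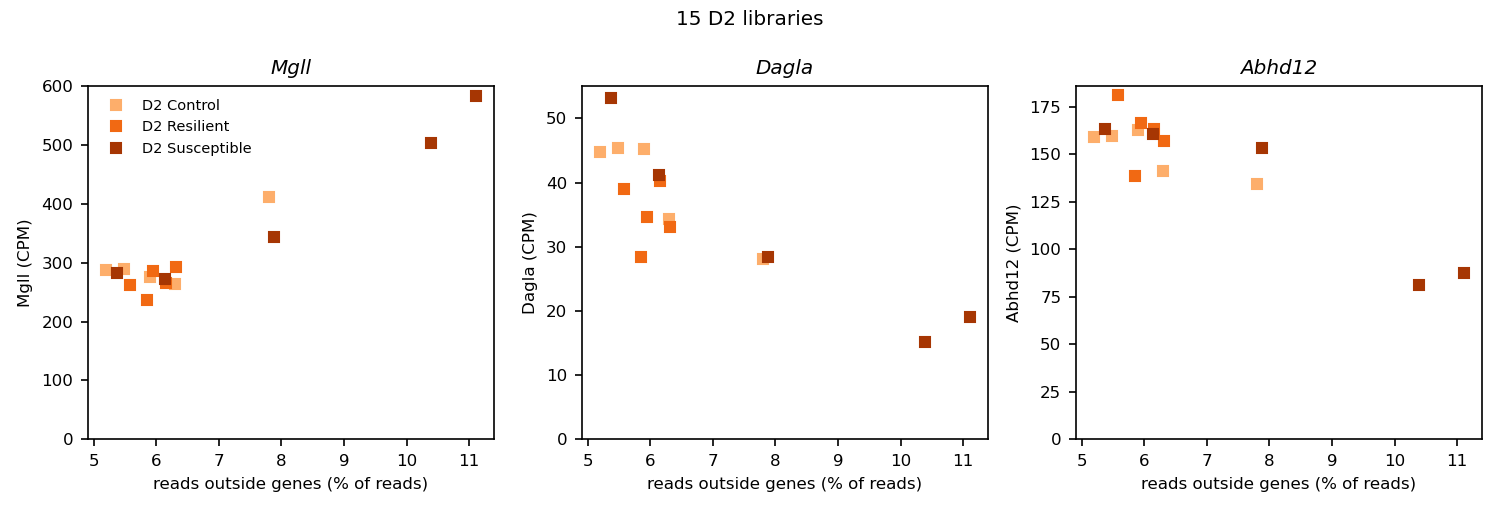
Mgll, Dagla and Abhd12 (CPM, y axes from 0) against the share of reads assigned to no gene feature in the 15 D2 libraries, coloured by stress group. The x axis, in percent, labels these as reads outside genes. The 2 libraries above 10% are D2 Susceptible replicates 1 and 2, with the highest Mgll (583 and 503 CPM) and the lowest Dagla (19.0 and 15.1 CPM) and Abhd12 (87.3 and 81.4 CPM).

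Some pairs of members varied together in the D2 libraries, and 3 pairs are given first. Pearson's r of log2 CPM over the 15 D2 libraries was 0.90 for Dagla with Abhd12, -0.79 for Dagla with Mgll and -0.86 for Mgll with Abhd12. Over the 15 D1 libraries the same pairs gave 0.45, -0.13 and -0.26. These values describe libraries that share depth and scaling, and they carry no test. Over the 13 D2 libraries without D2 Susceptible replicates 1 and 2, the 3 pairs gave 0.63, -0.36 and -0.35. Other pairs moved to unlike degrees when those libraries were left out. Dagla with Daglb went from 0.83 to 0.79, Abhd6 with Napepld from 0.88 to 0.09 and Napepld with Faah from 0.79 to -0.43.

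Whether stress acted differently in the classes was tested as the D1 difference minus the D2 difference. EdgeR called 0 of 8 members for Resilient against Control, Susceptible against Control and Susceptible against Resilient, as it did 0% of all genes, and DESeq2 and voom called 0 of 8 too. Unadjusted p values under 0.05 were reached by 0, 0 and 2 members, and by 4.99%, 7.79% and 12.4% of all genes. These 2, for Susceptible against Resilient, were Mgll at -0.67 (SE 0.207, edgeR adjusted p = 0.247) and Cnr1 at 0.58 (SE 0.246, adjusted p = 0.333). The Mgll value was -0.26 without D2 Susceptible replicates 1 and 2 and -0.12 in voom. The Cnr1 value was 0.41 without those 2 libraries, 0.35 in voom and 0.25 without them, D1 Susceptible replicate 1 and D2 Resilient replicate 5. For Faah and Abhd12 the values were 0.35 and 0.34, and 0.05 and 0.04 without D2 Susceptible replicates 1 and 2. So the larger Cnr1 gap between the classes in Susceptible mice, 1.69 against 1.12 in Resilient, was not called as a difference.

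A wider list of 28 genes around the pathway was read in the same fits, and 24 were tested; Hrasls5, Cnr2, Gpr18 and Trpv1 had too few counts. Cnr2, the gene for the CB2 receptor, had 53 counts over the 30 libraries. EdgeR called 0 of 24 in each of the 6 stress comparisons and in the 3 tests of D1 minus D2. At an unadjusted p under 0.05 the most were 7 of 24, for D2 Susceptible against Control, where 15.7% of all genes had such a p. DESeq2 called 2 for D2 Susceptible against Resilient (Gnaq and Gdpd1), where it called 976 genes in all. With voom 1 was called, Fabp5 for D1 Resilient against Control, and the voom count over all genes there is not given here. Between the classes edgeR called 1 of the 24 higher and 2 lower in D1 in Control mice (8.3% of all genes called) and 1 higher and 4 lower in Resilient mice (6.65%). It called 3 higher and 6 lower in Susceptible mice (23.9%), and 3 higher and 5 lower in the mean comparison (29.3%).

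Among genes that lead to diacylglycerol, Plcb4, a phospholipase C, was higher in D1 in Control mice, at 22.8 against 10.5 CPM (1.11 on the log2 scale, SE 0.205, adjusted p = 0.000459). It was also called in Susceptible mice (0.79) and in the mean comparison (0.84). Plcb3, of the same enzyme family, was lower in D1 in the mean comparison at 1.70 against 4.29 CPM (-1.36), as well as in Resilient (-1.52) and Susceptible mice (-1.52). The G protein subunit Gnaq was lower in D1 in Susceptible mice (-0.66). D2 Susceptible replicates 1 and 2 had 771 and 693 CPM of Gnaq, beside 308 to 403 CPM in the other 3, and Gnaq was not called without those libraries. Without them the Susceptible count was 2 higher (Plcb4 and Cnrip1) and 2 lower (Plcb3 and Fabp5) of 25 tested. Over all genes, 2123 were called without them and 4621 with them. The Susceptible calls of Abhd4, Pla2g16, Fabp7, Gde1 and Gdpd1 were lost as well.

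Among other enzymes of N-acylethanolamine metabolism, the hydrolase Abhd4 (-0.66) and the acyltransferase Pla2g16 (-1.18) were lower in D1 in the mean comparison, and the phosphodiesterase Gde1 (0.20) was higher. Gdpd1 was higher in Susceptible mice (0.34), a call lost without D2 Susceptible replicates 1 and 2, which had 34.0 and 25.0 CPM beside 45.02 to 50.01 CPM in the other 3. The CB1-binding protein Cnrip1 was higher in D1, as Cnr1 was, at 54.0 against 42.7 CPM (0.34, SE 0.0842, edgeR adjusted p = 0.00274). Of the fatty acid binding proteins, which carry anandamide inside cells, Fabp5 was lower in D1 at 94.2 against 140 CPM (-0.57, SE 0.0616, adjusted p = 1.50e-08). Fabp7, known from astrocytes and other glia, was lower at 4.05 against 10.3 CPM (-1.38), and Fabp3 was higher in Resilient mice (0.33). Astrocyte markers summed to 29.7 to 142 CPM in D1 and to 57.3 to 190 CPM in D2; their part in the Fabp5 and Fabp7 values was not tested.

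The genes whose level followed that of Cnr1 most closely were found by Pearson's r of log2 CPM over the genes tested, leaving out those with clone-style symbols (Gm or Rik). Over the 30 libraries they were Disp2 (0.97), Gnb4 (0.97) and Adcy2 (0.97), over libraries that include the gap between the classes. Within the 15 D1 libraries they were Immt (0.89), Atp2c1 (0.87) and Prkaa1 (0.86). Within the 15 D2 libraries they were Erbb4 (0.93), Disp2 (0.93) and Edil3 (0.92), and the same 3 genes gave 0.82, 0.87 and 0.80 without D2 Control replicate 5 and D2 Resilient replicate 5. Disp2 was the 1 gene named in more than 1 of these sets. The values share libraries and depth and carry no test.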

How the data were processed

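Counts of reads per gene were deposited by the authors as raw, unnormalised values for 30 libraries, with 5 summary lines of unassigned reads (10.1% to 53.3% of reads) that were kept out of library sizes and tests. Per the submitters' processing notes, HISAT2 and HTSeq were used, with builds GRCm38 and mm10. For these tools no version, and for the counting no use of strand, was found in the sources used here. Per the labels' protocols, each library came from 10 ng of RNA with the SMART-Seq v4 kit. Groups came from the sample titles.

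Symbols, coordinates and exon lengths came from GENCODE M21 (GRCm38), which matched 55154 of 55335 identifiers. After filterByExpr (minimum count 10, minimum total 15) and TMM scaling, the robust quasi-likelihood F test of edgeR 4.0.16 was run in R 4.3.3. The model had 6 groups over 30 libraries. Each of 13 comparisons was adjusted over 19368 genes (Benjamini-Hochberg, threshold 0.05). CPM per kb divides by merged exon length. Correlations between genes were taken on log2 CPM (prior count 2). Those with the class index or a marker sum, and the index itself, used log2 of CPM with a fixed offset in place of the prior count. The class index subtracts the mean log2 level of 7 D1 markers from that of 5 D2 markers; a sixth listed D2 marker, and a further gene of the wider list, are not reported here. The test was tried on simulated data.

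The members, gene lists and alternatives were chosen with earlier results of these data known. Named were all 8 members, each gene of the wider list that was called, and the 3 genes most like Cnr1. Alternatives used DESeq2 1.42.0 (its Wald test, and its size factors in edgeR), voom with quality weights (limma 3.58.1), no filter, only the groups compared, a replicate block, and libraries left out. The fit without D2 Control replicate 5 and D2 Resilient replicate 5 was added after the data were seen. A count of 0 allowed up to 3 counts, or 0.0455 to 0.103 CPM of the unscaled library size. Replicates within a group differed by more than sampling noise in all 60 pairs (chi-square per degree of freedom 12.8 to 2672).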

Additional observations from a re-analysis of the deposited data

Results flagged for a closer look

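In each of 48 sets of 5 libraries (8 genes in 6 groups), the highest and lowest value were checked for a gap to the next library larger than 0.71 of the whole range. For independent, normally distributed values chance gives such a gap in about 1 of 20 sets. Here 8 were found, in sets that share the same libraries, so the 8 cannot be read as an excess over chance. Cnr1 was at 87.8 CPM in D2 Control replicate 5, beside 44.0 to 50.3 CPM in the other 4. Mgll was at 412 CPM in D2 Control replicate 4, beside 265 to 289 CPM, and at 199 CPM in D1 Susceptible replicate 5, beside 242 to 258 CPM. Abhd6 was at 20.8 CPM in D2 Susceptible replicate 1, beside 31.4 to 34.7 CPM. It was also at 29.6 CPM in D1 Susceptible replicate 1, beside 35.0 to 37.2 CPM, and at 39.5 CPM in D2 Control replicate 3, beside 33.0 to 34.4 CPM. Daglb was at 36.3 CPM in D1 Control replicate 2, beside 28.8 to 30.9 CPM. Napepld was at 0 CPM in D2 Susceptible replicate 1, beside 2.10 to 2.82 CPM. The high Mgll values of D2 Susceptible replicates 1 and 2 are not in this list, since the 2 lie near each other.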

How the results depend on the processing

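Counts of the 8 genes called stayed within 1.5 times their main value except as follows. In Susceptible mice the count between the classes, 5, was 3 with voom, 2 with only the groups compared, 2 without D2 Susceptible replicates 1 and 2, and 2 without these and D1 Susceptible replicate 1 and D2 Resilient replicate 5. For D2 Susceptible against Resilient the count, 0, was 1 in DESeq2. With each library left out in turn, the counts ran from 3 to 5 for the Susceptible class comparison, from 1 to 2 for Control, from 1 to 2 for Resilient, from 4 to 7 for the mean comparison and from 0 to 3 for D2 Susceptible against Resilient. The 7 came without D2 Susceptible replicate 3. The cause of these shifts was not tested, beyond there being fewer libraries. No call changed direction. Among values of single genes under the alternatives, 2277 were held as the same, 30 lost a call, 39 gained one and 22 others moved. The same were values that kept their side of the threshold, including uncalled values that changed sign by less than their main SE. An example is Napepld for Susceptible against Control, D1 minus D2, at 0.19 and at -0.19 without D2 Susceptible replicates 1 and 2.

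Over all genes, counts of calls moved by more than 1.5 times in several settings. The 1608 called between the classes in Control mice were 5511 with voom, 2696 with only the groups compared and 3134 without D2 Susceptible replicates 1 and 2. The 1288 of Resilient mice were 3412, 2184 and 2305 in the same settings, and the 4621 of Susceptible mice were 3302, 915 and 2123. With each library left out in turn the Control count ran from 981 to 2151. For D2 Susceptible against Resilient 10 genes were called and DESeq2 called 976; against Control 1 was called and DESeq2 called 255.

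Adding the replicate block changed no count of calls, with 5 genes called in the Susceptible class comparison, 4 in the mean comparison and 2 in Control. Replicate numbers did not pair the libraries: the correlation of same-numbered libraries of different groups was -0.17 to 0.08 over 75 pairs, and 2 of 30 libraries correlated best with their own number. The fit of only the groups compared was not run for the mean comparison, which uses all groups. Napepld, at 0 to 248 counts per library, is the member most limited by depth.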
